A study of Homo sapiens with 3 samples.

Results

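The transcript clusters described here are probe sets of a human whole-transcript array that carry no gene symbol in the platform's annotation. Of 67528 probe sets, 42204 had none, and 40364 of these had an autosome in their ID, read from the 2 characters after TC. A mean log2 signal of 5 or more over the 3 arrays was reached by 8121 of the 40364 (20.1%), against 43.1% of the 21762 autosomal probe sets with 1 gene symbol. Rows with the same 3 values were counted once, which took away 471 rows and left 7650 members. The signal minimum and the differences from control were both used to pick this set, so what follows describes values and tests none.

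The cells were DLD1, an established human colon cancer line, and each of 3 conditions had 1 array: a control siRNA, siH19-1 and siH19-2, the last 2 being siRNAs against H19, an imprinted long noncoding RNA. All 3 received siRNA at 50 nM with a lipid reagent, and 500 ng of total RNA was labelled from each. Transfection lasted 48 hours by the protocol, while the design text speaks of 24 hours, and which holds is not settled. No replicate exists for any condition, so each difference below is between 2 single arrays and has no error.

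A transcript cluster is the array designer's unit: exons and probes that overlap on 1 strand are grouped and given an ID, whether or not a gene is known there. Clusters without a symbol can come from unannotated long noncoding transcripts, pseudogenes, copies of repeated sequence, small RNAs or fragments of known genes. Much of the genome outside known genes is transcribed at a low level, and such transcripts tend to be dimmer and more specific to a cell type than messenger RNAs. The files used here give neither sequence nor coordinates for these clusters, so each is named only by its ID.

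The values are log2 signals made with RMA and ran from 1.78 to 19.93. Above 16, the log2 limit of a 16-bit scanner, lay 157, 159 and 169 members on the control, siH19-1 and siH19-2 arrays, so a transformation beyond RMA is possible and a fold is a fold on the deposited scale. The probe set shared by H19 and MIR675 (TC11001273.hg.1) read 7.88 on the control array, 7.74 with siH19-1 and 7.37 with siH19-2, which is 90.8% and 70.2% of control, and neither difference reached 1.5-fold. Of 10 colon epithelium markers, 7 passed the signal minimum, the brightest being the keratin gene KRT8 at a mean of 15.45 and the dimmest CDX1 at 3.01. No fibroblast marker of 5 measured and no endothelial marker of 4 passed, and 1 of 6 leukocyte markers did, the macrophage gene CD68 at 5.93. Summed log2 signals of these lists ranged from 93.2 to 95.98 over the 3 arrays for epithelium, 15.81 to 15.93 for fibroblasts, 21.23 to 21.77 for leukocytes and 11.59 to 11.84 for endothelium.

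The member that stood farthest from its control value was TC04000276.hg.1, on chromosome 4. Its log2 signal was 5.35 on the control array, 11.9 with siH19-1 and 13.08 with siH19-2. It thus went from a dim reading, with 14.3% of members dimmer on the control array, to a bright one, with 91.2% and 94.1% of members dimmer on the siRNA arrays. The differences from control were 6.55 and 7.73, or 93.7-fold and 212.0-fold on the deposited scale. The next highest member was at 2.02 with siH19-1 and 2.94 with siH19-2, and over all 67528 probe sets the next highest differences were 2.76 and 2.94. Between the siRNA arrays the difference, siH19-1 minus siH19-2, was -1.18, a value that does not involve the control array. Both large differences rest on the same control value, so a low reading on that 1 array and a rise with both siRNAs cannot be told apart.

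Where named probe sets lie close together, ID numbers of this array mostly follow gene order, which places the cluster among named genes without giving it a name. Of 14750 autosomal probe sets with 1 symbol and a RefSeq promoter entry, 14748 were on the chromosome in their ID, and 96.9% of 14675 neighbouring pairs no more than 30 IDs apart were on the same strand with ascending positions. Only 3305 members (43.2%), TC04000276.hg.1 among them, lie between 2 named genes in this order. For the other members nearness in ID was not checked to be nearness on the chromosome. The ID before TC04000276.hg.1 belongs to NIPAL1, a gene of a magnesium transporter family, which read 6.04, 6.03 and 5.94 in control, siH19-1 and siH19-2. The ID after it, TC04000277.hg.1, is unnamed as well and read 3.04, 3.07 and 2.93. Next comes SLAIN2, whose protein promotes microtubule growth, at 9.29, 9.36 and 9.16. Within 6 IDs on either side no other probe set differed from control by 1.5-fold with either siRNA, the widest differences being 0.48 for the unnamed TC04000272.hg.1 and 0.40 for ATP10D, a lipid flippase gene, both with siH19-2. Just past this stretch, TC04000283.hg.1, TC04000284.hg.1 and TC04000285.hg.1 are unnamed members too, looked at after their values were seen. They read 6.87, 6.35 and 10.35 on the control array, 6.86, 6.19 and 10.35 with siH19-1, and 7.45, 7.54 and 11.22 with siH19-2, so only the siH19-2 array stood higher.

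**Figure D1:**
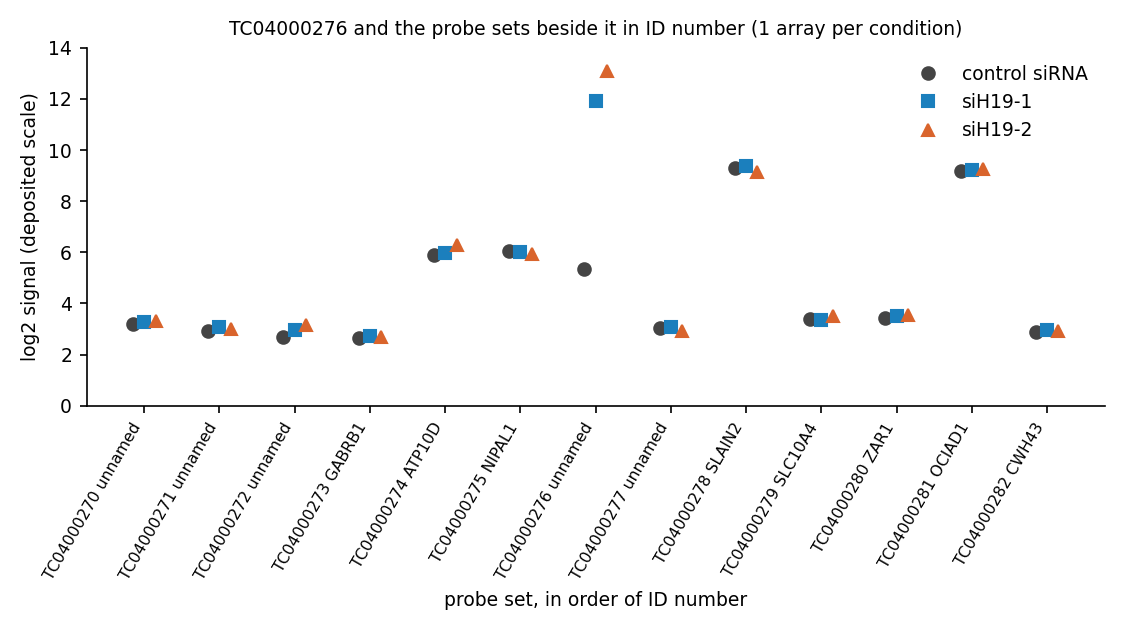
Log2 signal (vertical axis, deposited scale) of TC04000276.hg.1 and of the 6 probe sets on either side of it in ID number (horizontal axis), with 1 point for each of the 3 arrays. The 3 points of each neighbour lie close together, for most of them under the signal minimum of 5, whereas TC04000276 read 5.35 on the control array and 11.9 and 13.08 with the siRNAs against H19.

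Over all 7650 members, signals were on average slightly above control with both siRNAs as deposited. With siH19-1 the median difference was 0.03 (quartiles -0.14 and 0.21, SD over members 0.33), and 320 members were at least 1.5-fold higher and 200 lower. These are 4.18% and 2.61% of the members, read against 2.70% and 2.63% of all 17580 autosomal probe sets past the minimum, a set that includes the members. In either direction 6.8% of members differed by 1.5-fold, against a background of 5.32%. The share lower was near the background and the share higher above it. Of the 320 higher members, 44 read under 5 on the control array and passed the minimum only through the siRNA arrays. Of the 9352 probe sets with 1 gene symbol, 1.59% were higher and 2.63% lower (4.22% in all), with a median of -0.06.

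With siH19-2 the median of the members was 0.08 (quartiles -0.14 and 0.30, SD 0.44), and 682 were higher and 460 lower. The shares were 8.92% and 6.01%, against 5.52% and 7.67% of all 17580 probe sets, and 14.9% of members differed in either direction against 13.2%. In probe sets with 1 symbol the balance ran the other way: 2.97% were higher and 9.02% lower (12% in all), and their median was -0.07. Of the 682 higher members, 66 read under 5 on the control array and passed the minimum only through the siRNA arrays. Both comparisons use the 1 control array and are not independent of each other.

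The members' medians turned below 0 with median centring but not under the other 2 scalings, so their sign rested on the scaling chosen. After quantile normalization they were 0.04 with siH19-1 and 0.08 with siH19-2, and after cyclic loess 0.05 and 0.08. Their distance from named probe sets stayed similar under these 2 scalings. With each array centred on its own median over all probe sets, which moved the median of all probe sets past the minimum from -0.03 to -0.09 with siH19-1 and from 0.00 to -0.10 with siH19-2, the medians of the members were -0.03 and -0.02. The members' median minus that of probe sets with 1 symbol was 0.09 with siH19-1 and 0.15 with siH19-2 as deposited. Median centring shifts each array by 1 constant and so cannot alter this distance. The distance was 0.08 and 0.13 after quantile normalization, and 0.09 and 0.14 after cyclic loess. Of the members past 1.5-fold, 61.5% were higher with siH19-1 and 59.7% with siH19-2. Centring made these 46.4% and 43.5%, while in probe sets with 1 symbol they were 37.7% and 24.8% as deposited and 23.3% and 13.3% after centring. Quantile normalization gave 65.6% and 63.1% of members, against 45.2% and 31.8% with 1 symbol. Cyclic loess gave 67.5% and 61.1%, against 48.2% and 28.8%.

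Unnamed and named probe sets were apart at every level of signal examined. Among the 2475 members with a mean from 5 to 6, medians were 0.04 and 0.11 with siH19-1 and siH19-2, against -0.04 and 0.01 for the 1887 probe sets with 1 symbol in that range. From 9 to 12, 1165 members had medians of 0.00 and 0.04, against -0.07 and -0.13 for 2075 named probe sets. From 12 up, 655 members had 0.02 and 0.08, against -0.05 and -0.08 for 577. The share of members at least 1.5-fold lower with siH19-2 went from 2.87% in the dimmest range to 11.1% from 9 to 12, and in named probe sets from 1.8% to 15.2%.

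**Figure D2:**
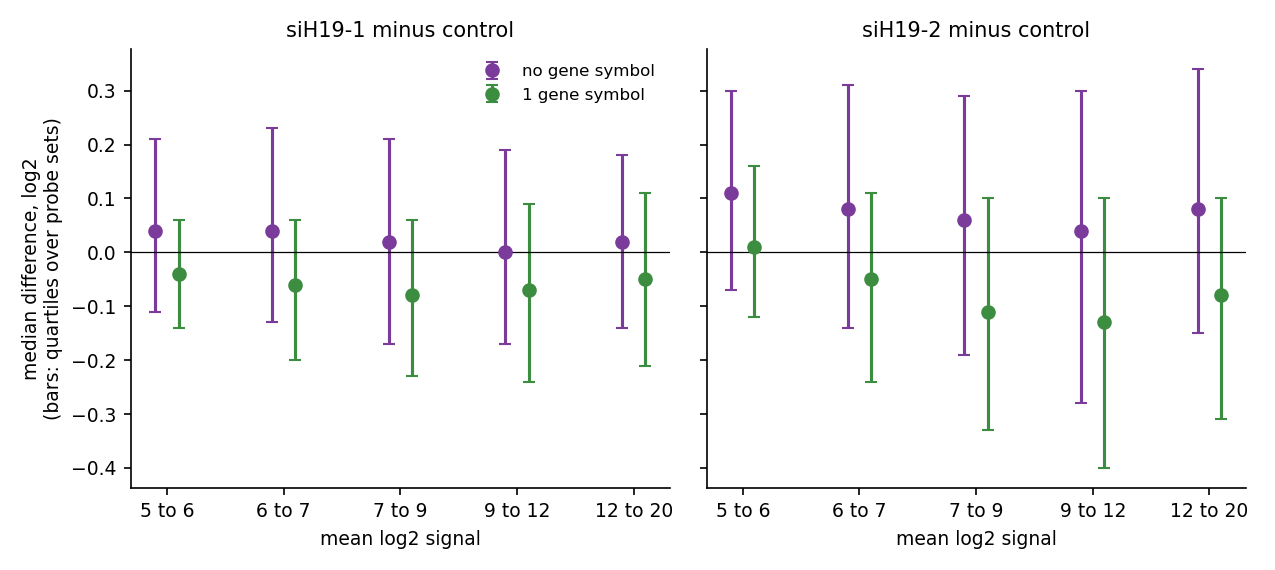
Median difference from control on the log2 scale (vertical axis) by mean log2 signal (horizontal axis), for probe sets without a gene symbol and with 1 gene symbol, with siH19-1 on the left and siH19-2 on the right. Bars span the quartiles over probe sets and are no error; in each of the 5 ranges the unnamed median lies above the named one.

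The unnamed clusters were set beside kinds of named gene. The 196 long noncoding RNA genes past the minimum had medians of 0.04 and 0.10, close to 0.03 and 0.08 for the unnamed clusters. Their median signal was 6.0 against 6.83, and their share past 1.5-fold was 1.02% with siH19-1 and 9.18% with siH19-2, against 6.8% and 14.9%. The 194 microRNA genes, whose probe sets read precursor or host transcripts, had higher medians, 0.15 and 0.30, a median signal of 6.65, and 8.76% and 23.7% past 1.5-fold. The 125 small nucleolar RNA genes, which guide modification of other RNAs, had medians of -0.02 and -0.11. The 8143 protein-coding genes had -0.07 and -0.09. These differences between kinds were not tested, since probe sets of 1 array are not replicates.

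**Figure D3:**
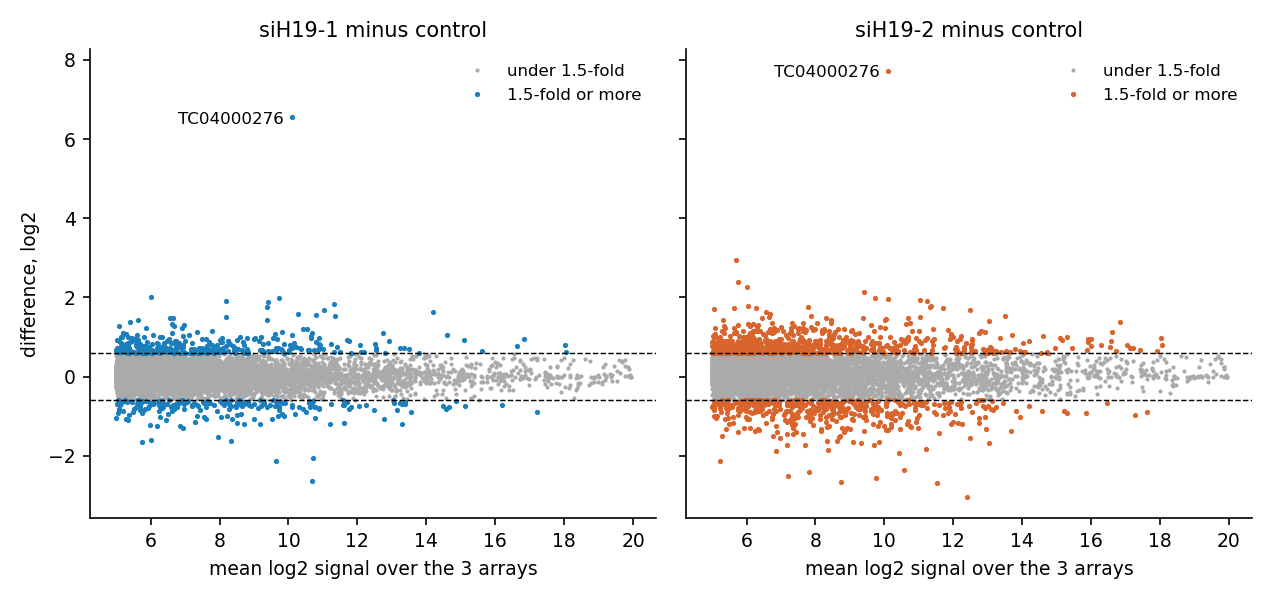
Difference from control (vertical axis, log2) against mean log2 signal over the 3 arrays (horizontal axis) for each of the 7650 members, with siH19-1 on the left and siH19-2 on the right. Dashed lines mark 1.5-fold; with siH19-1, 320 members lie above and 200 below, with siH19-2, 682 and 460, and TC04000276 stands alone at the top of both panels.

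The minimum on the mean lets a member pass through the arrays where it is bright. On the control array 275 members (3.59%) read under 5, on the siH19-1 array 164 and on the siH19-2 array 130, so counts of higher and lower members carry this choice and are given as a description. The 2 members nearest above the minimum were TC01003573.hg.1 (4.70, 4.83 and 5.47 in control, siH19-1 and siH19-2) and TC02004237.hg.1 (4.77, 4.86 and 5.37). The 2 unnamed probe sets nearest below it were TC01002989.hg.1 (5.04, 5.17 and 4.78) and TC01004121.hg.1 (4.97, 4.96 and 5.06). At the other end, the brightest member, TC01002863.hg.1, read 19.93 on all 3 arrays, the top value of the table, and TC08001305.hg.1, TC04001635.hg.1, TC09002314.hg.1 and TC16000648.hg.1 read between 19.9 and 19.93. A change in these cannot be seen at the top of the scale.

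Of the 8 members highest with both siRNAs, TC04000276.hg.1 came first and the other 7 were between 2.81-fold and 4.82-fold above control on the deposited scale. TC15000024.hg.1 read 4.57 on the control array, 6.59 with siH19-1 and 6.84 with siH19-2, differences of 2.02 and 2.27. TC05002568.hg.1 went from 8.41 to 10.4 and 10.39, nearly the same level with either siRNA (1.99 and 1.98). TC10001924.hg.1 went from 8.06 to 9.94 and 10.19 (1.88 and 2.13). These 3 read higher on both siRNA arrays than on the control array. TC15000024.hg.1 lay under the minimum of 5 on the control array, so it is a member only through the siRNA arrays.

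Both chromosome 3 members of the list were bright on all arrays: TC03003048.hg.1 read 10.12 on the control array and 11.96 and 11.87 with siH19-1 and siH19-2, and TC03002702.hg.1 read 9.84, 11.51 and 11.78. The last 2 of the list were on chromosome 10. TC10002216.hg.1 was dim, at 5.52, 7.01 and 7.14 (1.49 and 1.62). TC10000140.hg.1 was bright, at 10.24, 11.77 and 12.03 (1.53 and 1.79). The latter lies 2 IDs after CACNB2, a calcium channel subunit gene that read 6.09, 6.1 and 6.28, and 3 before the probe set annotated C10orf112 at 3.0, 2.97 and 3.02. Between the same 2 genes lies TC10000142.hg.1, another unnamed member, at 4.81, 5.25 and 7.20, which was 2.39 above control with siH19-2 and 0.44 with siH19-1. Its control value lay under the minimum of 5, so it too is a member only through the siRNA arrays. The 2 clusters directly beside TC10000140.hg.1 read under 4 on all arrays, and neither they nor the 2 genes differed from control by 1.5-fold.

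The 8 members lowest with both siRNAs had signals between 0.272 and 0.521 of control on the deposited scale. TC15001777.hg.1 read 6.76 on the control array, 5.10 with siH19-1 and 5.37 with siH19-2, differences of -1.66 and -1.39. TC09000447.hg.1 read 7.89, 6.65 and 6.01 (-1.24 and -1.88), and TC06003069.hg.1 read 12.21, 11.0 and 10.39 (-1.21 and -1.82). On both, the siH19-2 array was the lowest of the 3. TC09000447.hg.1 lies 1 ID before FAM120A, which encodes an RNA-binding scaffold protein and read 10.18, 10.15 and 9.87, and 3 after the kinase gene WNK2 at 4.42, 4.46 and 4.45.

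TC08001876.hg.1 (12.46, 11.29 and 11.04), TC20001195.hg.1 (8.04, 6.90 and 6.91), TC02003134.hg.1 (13.51, 12.43 and 12.34), TC17002290.hg.1 (9.33, 8.27 and 7.47) and TC03000438.hg.1 (10.92, 9.98 and 9.64) made up the rest. In TC20001195.hg.1 and TC02003134.hg.1 the siRNA arrays lay within 0.09 of each other and more than 1 below control. The values of TC03000438.hg.1 were shared exactly by a row on chromosome 4. In ID number TC03000438.hg.1 lies between the probe sets annotated to the microRNA genes MIR4444-1 and MIR1324, which read under 4 on all arrays.

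**Figure D4:**
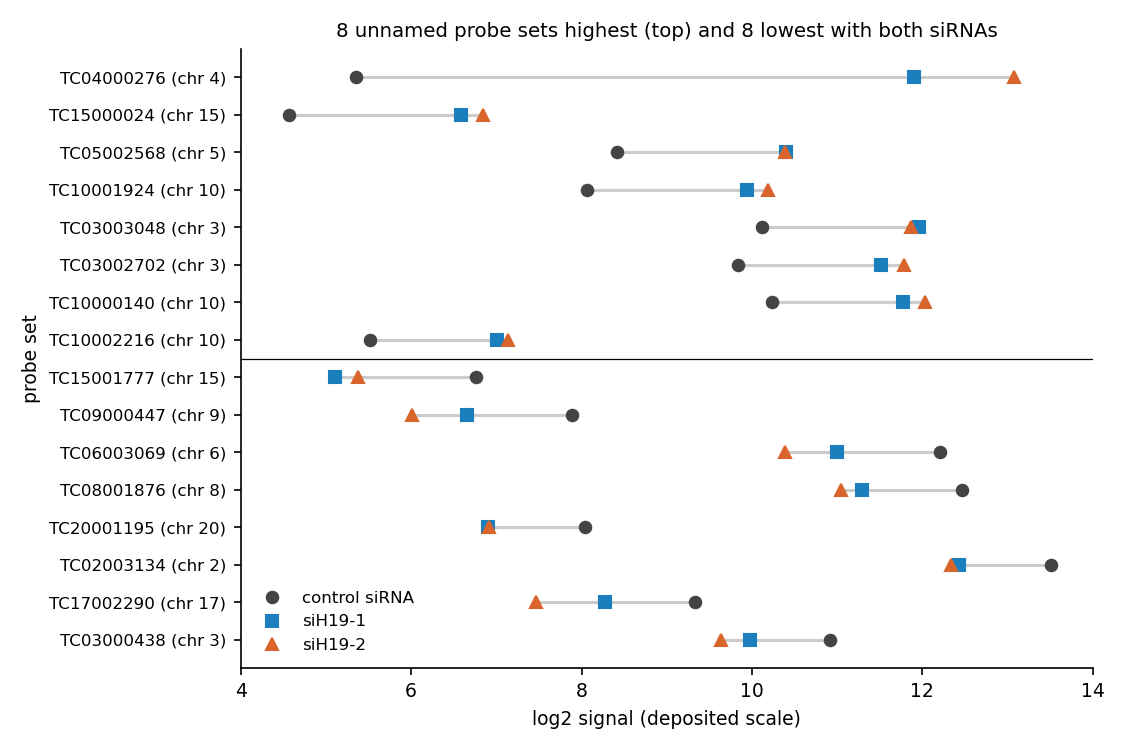
Log2 signal (horizontal axis, deposited scale) on each of the 3 arrays for the 8 members highest and the 8 lowest with both siRNAs (vertical axis), chosen by these values. In each row the control point stands on 1 side and both siRNA points on the other; the widest gap is that of TC04000276, from 5.35 to 13.08.

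Some members departed from control with 1 siRNA and much less with the other. With siH19-1 the lowest was TC18000873.hg.1, at 11.76 in control, 9.11 in siH19-1 and 11.17 in siH19-2 (-2.65 and -0.59; the siH19-2 value was -0.49 after quantile normalization and -0.53 after cyclic loess, under 1.5-fold). TC09002753.hg.1 followed at 10.46, 8.33 and 10.12 (-2.13 and -0.34), and TC12002216.hg.1 at 11.62, 9.57 and 10.93 (-2.05 and -0.69). TC10000514.hg.1 read 9.08, 7.46 and 8.44 (-1.62 and -0.64, the latter -0.56 after quantile normalization). All 4 were above 9 on the control array, and siH19-1 was the lowest array in each. Among the highest with siH19-1, the 1 not yet described was TC19000300.hg.1, at 7.18, 9.08 and 8.32 (1.90 and 1.14).

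With siH19-2 the lowest members were bright in control cells. TC04001887.hg.1 read 13.43 on the control array, 13.37 with siH19-1 and 10.4 with siH19-2, a difference of -3.03 with siH19-2 and -0.06 with siH19-1. TC09001042.hg.1 read 12.53, 12.18 and 9.85 (-0.35 and -2.68). TC17000665.hg.1 read 9.75, 9.36 and 7.09 (-0.39 and -2.66). Control and siH19-1 lay close together in all of these and siH19-2 stood below.

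TC01005092.hg.1 (10.63, 10.63 and 8.06) and TC10000273.hg.1 (8.20, 7.71 and 5.69) had the same pattern. TC09001042.hg.1 lies between ARID3C, a DNA-binding protein gene at 3.18, 3.14 and 3.19, and CCL19, a chemokine gene at 4.23, 4.36 and 4.37. TC17000665.hg.1 lies between EME1, an endonuclease subunit gene at 6.07, 5.77 and 5.92, and ACSF2, an acyl-CoA synthetase gene at 5.01, 4.99 and 5.22. None of these 4 named genes differed from control by 1.5-fold. In the other direction TC20000678.hg.1 read 4.44, 5.24 and 7.38, which is 0.80 and 2.94 above control. Its control value lay under the minimum of 5, so it is a member only through the siRNA arrays.

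A comparison of siH19-1 with siH19-2 leaves the control array out. The median of the members was -0.05, and 365 were at least 1.5-fold higher in siH19-1 and 376 lower, or 4.77% and 4.92%, against 5.28% and 3.52% of all 17580 probe sets. In either direction 9.69% of members and 8.81% of all probe sets differed. Probe sets with 1 symbol were less even, with 5.73% higher in siH19-1 and 2.52% lower (8.25% in all). After median centring 418 of the 7650 members were higher and 313 lower, beside 622 and 199 of the 9352 probe sets with 1 symbol. Quantile normalization gave 376 and 375 members, beside 517 and 254. Cyclic loess gave 389 and 333, beside 555 and 218.

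The widest of these gaps was in TC16000588.hg.1, which read 10.66 on the control array, 11.86 with siH19-1 and 8.73 with siH19-2, a gap of 3.13. Its differences from control were 1.20 with siH19-1 and -1.93 with siH19-2. TC01004801.hg.1 also had its control value between the others (9.25, 10.69 and 8.24). In the opposite sense TC18000225.hg.1 read 4.80, 3.88 and 6.50, a gap of -2.62, and passed the minimum of 5 only through the siH19-2 array. It lies between PHLPP1, a phosphatase gene at 8.94, 8.59 and 8.94, and SERPINB5, the maspin gene, at 4.86, 4.86 and 4.99. In these 3 members the siRNAs stood on opposite sides of control.

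By chromosome, medians of the members lay within a narrow range. With siH19-1 they ran from -0.03 on chromosome 19 (270 members) to 0.07 on chromosome 4 (337 members), a range of 0.10, with chromosomes 13 and 18 next highest at 0.06 and chromosomes 12, 17, 21 and 22 next lowest at 0.00. With siH19-2 they ran from 0.00 on chromosome 19 to 0.16 on chromosome 4, a range of 0.16, with chromosome 15 second at 0.13 and chromosome 16 second lowest at 0.02. On chromosome 4 the quartiles with siH19-2 were -0.11 and 0.42, and on chromosome 19 they were -0.21 and 0.20, so the spread within a chromosome was wider than the range between them. Relative to all members, chromosome 4 lay 0.04 and 0.08 higher and chromosome 19 differed by -0.06 and -0.08. Chromosome 4 was the highest and 19 the lowest with both siRNAs after quantile normalization and cyclic loess as well, while median centring cannot change this order. Which chromosomes stood first and last depended on the members counted. With a minimum of 4 they were 13 and 12 with siH19-1, and 21 and 19 with siH19-2, and with a minimum of 7 they were 13 and 22, and 4 and 22. With means under 7, chosen after seeing the data, the highest and lowest were 10 and 16 with siH19-1, and 15 and 16 with siH19-2.

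Unnamed medians were above those of probe sets with 1 symbol on all 22 autosomes with both siRNAs as deposited, by 0.05 to 0.12 with siH19-1 and 0.10 to 0.21 with siH19-2. The chromosomes that were low for unnamed clusters tended to be low for named genes. Across the 22 autosomes the unnamed and named medians had a Pearson correlation of 0.74 (Spearman 0.71) with siH19-1 and 0.61 (0.52) with siH19-2, given as a description, since all points share the same arrays. The medians were also set against the median GC content of RefSeq promoters (GRCh38.p14) on 21 autosomes, a measure of annotated genes and not of the clusters. This GC content ran from 52.3% on chromosome 18 to 63.3% on chromosome 16, with 53.3% on chromosome 4 and 62.7% on chromosome 19. The correlations were -0.69 (Spearman -0.57) with siH19-1 and -0.69 (-0.55) with siH19-2. Against the members' median signal they were -0.32 (-0.30) and -0.33 (-0.43). The part of base composition in the result was not tested, and these were 3 measures set against each comparison.

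Shares of changed members also differed between chromosomes, and some rest on few members. Over all 17580 autosomal probe sets past the minimum, 5.52% were higher and 7.67% lower with siH19-2, and 2.70% and 2.63% with siH19-1. The shares were not compared with those of named probe sets on the same chromosome. With siH19-2 the share at least 1.5-fold higher ran from 4.27% on chromosome 22 (164 members) to 15.7% on chromosome 18 (108 members), and the share lower from 2.31% on chromosome 15 (389 members) to 11.1% on chromosome 19. With siH19-1 chromosome 15 had the highest share of higher members, 7.71%, and chromosome 22 the lowest, 0.61% (1 of 164 members). On chromosome 5, 4.8% were higher and 0.959% lower with siH19-1, and 13.9% and 4.32% with siH19-2.

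**Figure D5:**
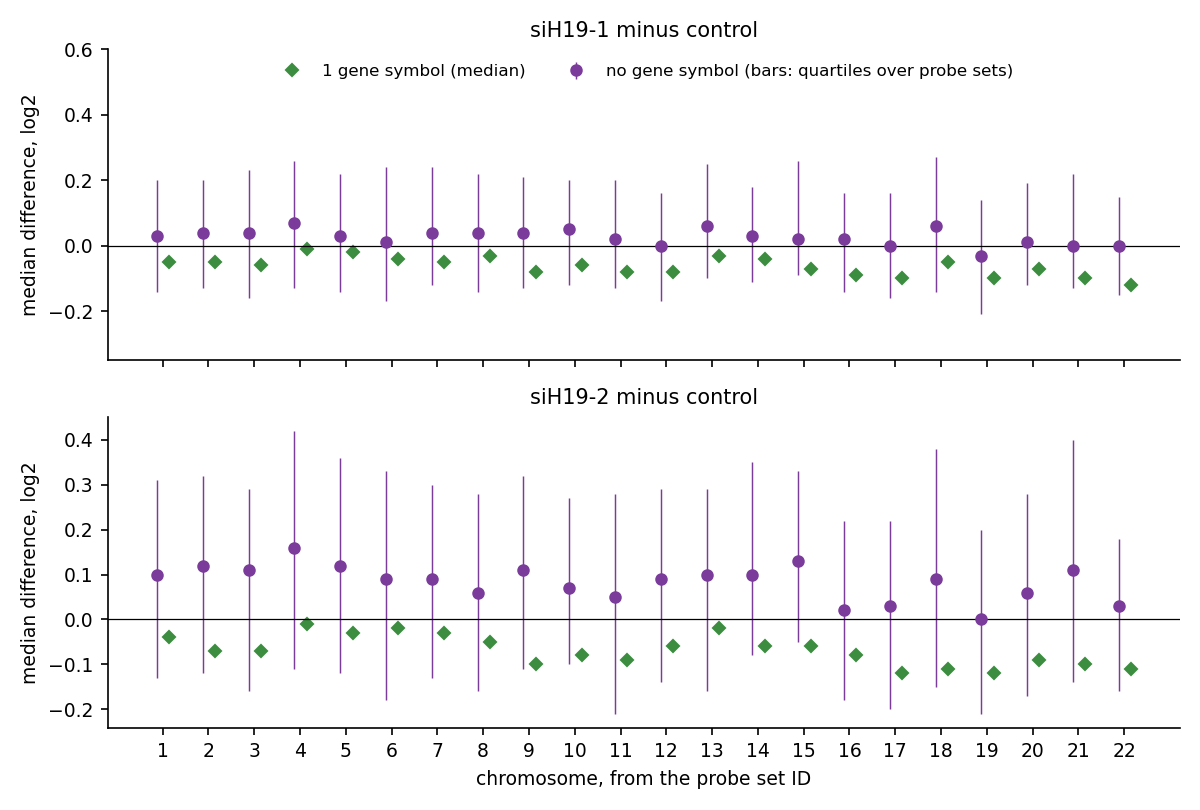
Median difference from control (vertical axis, log2) on each of the 22 autosomes (horizontal axis) for probe sets without a gene symbol, with bars for quartiles over probe sets, and for probe sets with 1 gene symbol, with siH19-1 above and siH19-2 below. The unnamed medians run from -0.03 to 0.07 with siH19-1 and from 0.00 to 0.16 with siH19-2, and each lies above the named median of its chromosome.

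Members were also divided by their place in the numbering, a split made after the values were seen, with 6 on unplaced contigs left out. A first group of 3660 members has IDs between named probe sets no more than 30 IDs apart, and 3984 lie in stretches of IDs with few or no named genes. With siH19-2 the first group had a median of 0.12, with 9.92% higher and 3.42% lower, and the second had 0.04, with 7.98% higher and 8.41% lower. The second group's share lower was close to the 9.02% of probe sets with 1 symbol, while its share higher was above their 2.97%. Over all 17580 autosomal probe sets past the minimum, 5.52% were higher and 7.67% lower. With siH19-1 the medians were 0.04 and 0.01. The shares higher were 4.1% and 4.27%, against 2.70% of all 17580, and the shares lower 2.02% and 3.16%, against 2.63%. Median signals were alike, 6.76 and 6.88.

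Members were set beside the named gene next to them in ID number. Only members placed between 2 ordered genes were used, and TC04000276.hg.1 was left out. Over 1520 pairs of such a member and an adjacent probe set with 1 symbol, both past the minimum, the Pearson correlation of their differences was 0.08 with siH19-1 and 0.10 with siH19-2. These correlations describe pairs that share the same arrays. Of 198 such members past 1.5-fold with siH19-2, 19 (9.6%) had a neighbour past it in the same direction, where 3.22% of all neighbours were higher and 8.42% lower. With siH19-1 it was 3 of 87 (3.45%), where 1.97% of all neighbours were higher and 2.11% lower. Runs of at least 3 changed members with ID steps of no more than 2, looked for after the values were seen, numbered 1 with siH19-1 and 5 with siH19-2. They were sought over all members, placed between ordered genes or not. Such runs were not counted in other probe sets, and more members were past 1.5-fold with siH19-2 (14.9%) than with siH19-1 (6.8%). The longest was TC05001247.hg.1 to TC05001250.hg.1, where siH19-2 was 1.15, 0.92, 0.90 and 1.49 above control and siH19-1 0.71, 0.42, 0.28 and -0.12.

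Some rows carried exactly the same 3 values, and they are described as groups chosen after the values were seen. Of the 8121 rows, 617 shared their values with another, in 146 groups, and 64 of the groups spanned chromosomes. In 45 groups of 5 or more rows, 16 lay on 1 chromosome, 7 of these on chromosome 15. A group of 29 rows on 9 chromosomes, first listed as TC01001060.hg.1, read 7.41 on the control array, 8.21 with siH19-1 and 8.17 with siH19-2, 0.80 and 0.76 above control. Another of 14 rows on 5 chromosomes, first listed as TC01001058.hg.1, read 5.93, 5.71 and 4.60, with differences of -0.22 and -1.33.

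On chromosome 15 neighbouring IDs belonged to separate groups that moved differently. TC15000023.hg.1, with 12 identical rows, read 8.56, 8.16 and 8.55. TC15000024.hg.1, with 11, is the member described above that was 2.02 and 2.27 above control. TC15000025.hg.1, with 12, read 4.76, 5.21 and 5.71, which is 0.45 and 0.95 above control. The named probe set next to them, annotated to both GOLGA6L1 and GOLGA6L22 of the golgin-like family, read 3.91, 4.02 and 4.11, which is 0.11 and 0.20 from control. The probe sets with 1 symbol nearest in ID number, TUBGCP5 of the gamma-tubulin ring complex (7.05, 7.01 and 7.04) and the pseudogene REREP3 (7.13, 7.03 and 7.11), stayed within 0.10 of control on both siRNA arrays. TC15000024.hg.1 was not among the members placed between ordered genes. In a further group of 12 on chromosome 15, first listed as TC15000772.hg.1, the values were 6.70, 5.10 and 6.22, with siH19-1 the lowest at -1.60. Each such group is 1 member in the counts above, and with every row counted 634 and 1297 rows were past 1.5-fold with siH19-1 and siH19-2 in place of 520 and 1142 members.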

How the data were processed

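RNA from DLD1 cells was labelled with biotin and hybridised to 3 arrays, 1 for each condition. Per the submitters' processing notes, RMA in Affymetrix Expression Console produced the deposited log2 signals. Their versions and the genome build are not stated there. Values from the deposited table were used unchanged. A probe set without an entry in the platform's gene annotation was taken as unnamed. Members were autosomal unnamed probe sets with a mean log2 signal of 5 or more over the 3 arrays, identical value triples counted once. The members and all lists were chosen with earlier results of these data known. The rule for naming took TC04000276.hg.1, the 8 highest and 8 lowest members with both siRNAs by the smaller difference, the 5 highest and 5 lowest with each, the 4 at each end of siH19-1 minus siH19-2, the 5 brightest, the 2 on either side of the minimum, and the autosomes at the ends of the order of medians. With 1 array per condition no test was made; a difference of at least 1.5-fold stands in for a call. Precision is limited by having so few arrays. Alternatives were median centring, quantile normalization and cyclic loess (limma 3.58.1, R 4.3.3), minima of 4 and 7, every row counted, values above 16 left out, and a 2-fold threshold. The rest was done in Python 3.11.15 (pandas 2.3.3, numpy 2.4.6, scipy 1.17.1). The counting code was run on simulated data with planted changes past the threshold and less spread than the members had. That run checks the code and not how many of the reported calls are false. Gene kinds came from RefSeq (GRCh38.p14), and promoter strand and order of genes from its promoter table, which held none for chromosome 8. Unnamed probe sets have no sequence or coordinates in the files used here, so none is printed.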

Additional observations from a re-analysis of the deposited data

How the results depend on the processing

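With each array centred on its median the members' siH19-2 median moved to -0.02 from 0.08, and the siH19-1 median changed sign to -0.03. A minimum of 7 left 3621 members, of which 289 and 691 were past 1.5-fold with siH19-1 and siH19-2. These are lower counts out of fewer members, not lower shares, and no share over all probe sets was computed at that minimum. The 2-fold threshold gave 82 and 262 members. With siH19-1 these were 49 higher and 33 lower of 7650, against 83 and 79 of all 17580 autosomal probe sets past the minimum of 5. With siH19-2 they were 139 and 123, against 190 and 382. The other alternatives for the counts past 1.5-fold stayed within 1.5 times the reported 520 and 1142. The range of chromosome medians was 0.07 to 0.16 with siH19-1 and 0.14 to 0.21 with siH19-2 over the alternatives. The difference of TC04000276.hg.1 was 6.49 to 6.61 and 7.63 to 7.79 after the 3 scalings. Rescaled values were taken for 32 unnamed probe sets listed by ID, most for wide differences and 2 as just below the minimum, without TC04000276.hg.1. Of 159 such values past 1.5-fold as deposited, 156 were still past it in the same direction. The other 3 were under it and none changed sign. Picking the widest differences left most of these values little room to fall under 1.5-fold, so this check gives the calls no support. Among all 192 rescaled values, 5 changed sign or moved from or to 0, none of them over 0.09 in size before or after. The count of members changed the same way with both siRNAs is not given, because both differences share the control array. No paired analysis was possible because each condition has 1 array. Dim members cannot be called present or absent, since detection calls were not used here.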

Other observations

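Unnamed clusters off the autosomes were left out of the counts above. On the X chromosome 306 of 1290 passed the minimum, 305 with distinct values. Their medians were 0.00 with siH19-1 and 0.06 with siH19-2, and 6 (1.97%) and 17 (5.57%) of them were at least 1.5-fold higher, against 2.70% and 5.52% of all autosomal probe sets past the minimum. At least 1.5-fold lower were 5 (1.64%) and 15 (4.92%), against 2.63% and 7.67%, so none of these shares was well above that background. All 22 unnamed clusters of the mitochondrial chromosome passed, and 12 of these rows read 19.93 on every array. The 11 with distinct values had medians of 0.14 and 0.13, and 1 was past 1.5-fold, higher with siH19-1 at 0.65. Of 284 unnamed clusters on alternative haplotypes of chromosome 6, 43 passed, 34 with distinct values, with medians of -0.10 and -0.01; 1 was lower by 1.5-fold with siH19-1 and none with siH19-2.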
